A study of Mus musculus with 6 samples.

Results

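The genes described here encode the giant scaffold proteins of the sarcomere and the proteins of its M-band: titin (*Ttn*), the nebulin family (*Neb*, *Nebl* and *Nrap*), the obscurin-like protein 1 gene *Obsl1*, and the myomesins (*Myom1*, *Myom2* and *Myom3*). They were taken by symbol, by the families their products belong to, and are 8 of the 54525 gene rows in the count tables. All 8 passed the filter on low counts and were among the 16290 genes tested. C2C12 is an established mouse myoblast line, derived from the muscle of adult mice, which proliferates in serum-rich medium and fuses into multinucleated myotubes when serum is lowered. The libraries came from wild-type C2C12 cells with no other treatment, 3 of proliferating myoblasts (day 0, D0) and 3 of myotubes after 5 days of differentiation (D5). Per the methods, growth medium held fetal bovine serum and differentiation medium held horse serum, so differentiation and the change of medium cannot be told apart, and all 6 libraries come from 1 cell line. Total RNA of whole cultures was sequenced, so a larger share of differentiated cells and more RNA per cell cannot be told apart either. The sources used here do not say whether the 3 samples of a group came from separate passages, so p-values measure the spread between these samples, which may be technical.

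A sarcomere is the contractile unit of striated muscle, bounded by Z-discs that anchor actin thin filaments and centred on the M-band, which holds the myosin thick filaments in register. Titin spans from the Z-disc to the M-band as a molecular spring and ruler. Nebulin lies along the thin filament and stabilises it, nebulette is its short relative best known from cardiac Z-discs, and NRAP is a LIM-domain relative found where myofibrils begin to assemble and where they end at the membrane. Myomesins cross-link thick filaments at the M-band and bind titin there, with *Myom2* (M-protein) typical of fast fibres and *Myom3* of some slow and intermediate fibres. OBSL1 belongs to the obscurin family, binds titin and myomesin at the M-band, and is also a part of the 3M complex, a cytoplasmic assembly around the ubiquitin ligase scaffold CUL7.

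In GRCm38 (GENCODE M21), *Ttn* spans chr2:76703980-76982547 on the minus strand, with 347 exons in its longest transcript of 106824 bases and 116825 bases of exon in all. *Neb* lies on the same chromosome and strand at chr2:52136647-52378474, with 157 exons in a longest transcript of 22489 bases. *Nebl* is at chr2:17343909-17731464 on the minus strand, *Nrap* at chr19:56320035-56390037 on the minus strand, *Obsl1* at chr1:75479310-75506452 on the minus strand, *Myom1* at chr17:71002633-71126856, *Myom2* at chr8:15057653-15133541 and *Myom3* at chr4:135759715-135815564, the last 3 on the plus strand. Of the stretches of 50 bases in the transcripts of each gene, 0% occurred in another of the 8, so reads of this length match 1 gene of the family each. Within the longest *Neb* transcript, 4.36% of such stretches occurred more than once, against 0.710% in *Ttn*, and whether reads with several matches were kept is not given in the sources used here. The exons of *Nrap* overlap genes on the opposite strand (*Habp2* and *Gm17197*) over 6.83% of their length and those of *Myom1* overlap *Myl12a* over 1.98%. The strand setting of the counting is not given in the sources used here, so reads from these stretches cannot be assigned to 1 gene.

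The promoters of genes that were higher in all D5 libraries are shown because the myogenic factors bind short motifs of known sequence. RefSeq (GRCm38.p6) gave 9 windows of 250 bases upstream of a start site, 4 of them for *Nebl*, covering 6 of the 8 genes. *Neb* and *Myom2* had no entry. The windows below are those of the genes with 1 start site, 5′ to 3′ on the strand of the gene. Capitals mark E-boxes (CANNTG, the motif of MYOD and myogenin, which contains the preferred form CAGCTG), the MEF2 consensus and the CArG box of serum response factor. The window of *Ttn* is chr2:76982548-76982797 (minus strand), that of *Nrap* chr19:56390039-56390288 (minus), that of *Obsl1* chr1:75506453-75506702 (minus), that of *Myom3* chr4:135759465-135759714 (plus) and that of *Myom1* chr17:71019307-71019520 (plus), the last given only as far as an annotated exon of another *Myom1* transcript.
Ttn: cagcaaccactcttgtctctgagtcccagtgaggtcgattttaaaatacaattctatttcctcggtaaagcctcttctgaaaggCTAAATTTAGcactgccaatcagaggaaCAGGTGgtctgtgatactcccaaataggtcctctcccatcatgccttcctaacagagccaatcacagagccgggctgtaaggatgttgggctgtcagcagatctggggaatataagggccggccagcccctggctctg
Nrap: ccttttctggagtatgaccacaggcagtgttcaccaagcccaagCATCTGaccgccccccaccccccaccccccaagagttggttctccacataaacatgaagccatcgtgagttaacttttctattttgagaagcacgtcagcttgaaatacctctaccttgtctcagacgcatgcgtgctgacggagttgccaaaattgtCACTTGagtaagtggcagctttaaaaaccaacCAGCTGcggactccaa
Obsl1: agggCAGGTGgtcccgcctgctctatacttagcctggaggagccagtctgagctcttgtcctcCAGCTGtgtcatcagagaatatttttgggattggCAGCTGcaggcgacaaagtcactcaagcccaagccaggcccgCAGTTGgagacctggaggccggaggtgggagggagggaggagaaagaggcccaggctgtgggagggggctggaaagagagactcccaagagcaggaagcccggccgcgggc
Myom1: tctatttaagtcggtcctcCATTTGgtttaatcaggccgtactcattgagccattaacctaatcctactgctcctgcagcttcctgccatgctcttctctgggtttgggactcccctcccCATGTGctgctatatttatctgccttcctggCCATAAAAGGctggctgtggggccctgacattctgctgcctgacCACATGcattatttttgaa
Myom3: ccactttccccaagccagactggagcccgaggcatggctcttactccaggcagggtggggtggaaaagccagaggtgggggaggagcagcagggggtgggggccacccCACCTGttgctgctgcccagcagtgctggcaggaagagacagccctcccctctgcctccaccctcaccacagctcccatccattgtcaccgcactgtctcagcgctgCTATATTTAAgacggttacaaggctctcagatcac

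Searched on both strands, a CANNTG E-box was present in 7 of the 9 windows, against 66.2% of the 32817 RefSeq mouse windows of the same length. Of these 7, 1 *Nebl* window lies wholly within annotated *Nebl* exon. All *Nebl* windows lie inside the annotated span of the gene, the one with the CArG box at chr2:17462857-17463106. Whether they act as promoters was not tested. *Obsl1* held 4 E-boxes, 2 of them CAGCTG, and *Nrap* held 3, 1 of them CAGCTG at position -16 from the start site. CAGCTG was in 2 of the 9 windows and in 13% of all windows. The MEF2 consensus was in 2 windows, starting at -166 in *Ttn* and at -35 in *Myom3*, against 2.92% of all windows, and the CArG box was in 2 windows, at -99 in *Myom1* and in 1 of the *Nebl* windows, against 1.47%. CATTCC, the M-CAT motif of TEAD factors, was in 1 *Nebl* window and in 12.6% of all windows, and neither CACGTG (6.02% of all windows) nor TATAAA (12.4%) was in any of the 9. A match describes these letters only, and these counts are too few to set the 8 genes apart from other genes.

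Depth was higher at D0, where gene counts totalled 36555048 to 40895840 a library, than at D5, where they totalled 25449759 to 25811300. Replicates differed by more than sampling noise (chi-square over its degrees of freedom between 2.28 and 3.71 for each pair). The labelled cells were checked against marker genes in CPM (counts per 1000000 gene counts, with library sizes scaled by the TMM method). The myogenic factor *Myog* went from 2.76 ± 0.367 to 515 ± 3.24 CPM (mean ± SD, n = 3) and the fusogen *Mymk* from 1.57 ± 0.350 to 818 ± 35.9, while *Myod1* went from 207 ± 6.24 to 126 ± 3.95 and all 5 proliferation genes, among them *Mki67*, were lower at D5. Summed over a marker list, fibroblast and adipogenic progenitor genes ran from 18.6 to 19.0 CPM at D0 and from 460 to 489 at D5, with 4 of 5 higher at D5 (*Dcn*, *Col1a1*, *Pdgfra* and *Lum*) and *Tcf21* at 0. Heart muscle genes summed to between 5.99 and 6.27 CPM at D0 and 25.8 and 32.3 at D5, with *Myh6* higher, *Nppb* (1.51 ± 0.271 to 0.175 ± 0.103 CPM) and *Nkx2-5* (4.62 ± 0.379 to 2.48 ± 0.416 CPM) lower, and *Nppa*, *Myl7* and *Tbx5* at 3 counts or fewer in every library. Endothelial genes went from at most 3.59 to at most 0.884 CPM, leukocyte genes lay between 2.05 and 3.39 CPM throughout with *Ptprc* at 3 counts or fewer, and neuron and glia genes went from at least 217 to at most 4.78 CPM, nearly all of it *Tubb3*, with *Rbfox3* at 0. The part of these markers in the results below was not tested.

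All 8 genes were higher at D5 (edgeR quasi-likelihood test, Benjamini-Hochberg adjusted over 16290 genes, threshold 0.05), and 0 were lower. Of all genes tested, 42.2% were higher and 40.8% lower at D5, so a call in itself is common in this comparison. The median log2 fold change of the 8 genes was 3.61, against 0.0022 over all genes tested, and single values ran from 0.61 (*Nrap*) to 9.20 (*Myom3*). Every D5 library was above every D0 library for all 8 genes, an arrangement that 42.2% of all genes tested showed, while 41.1% showed the reverse. In counts, the 8 genes took 0.669, 0.654 and 0.633% of all gene counts in the D0 libraries and 3.04, 3.12 and 3.04% in the D5 libraries. *Ttn*, with by far the longest transcript, held at most 95.2% of those counts at D0 and from 75.0 to 75.9% at D5.

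**Figure D1:**
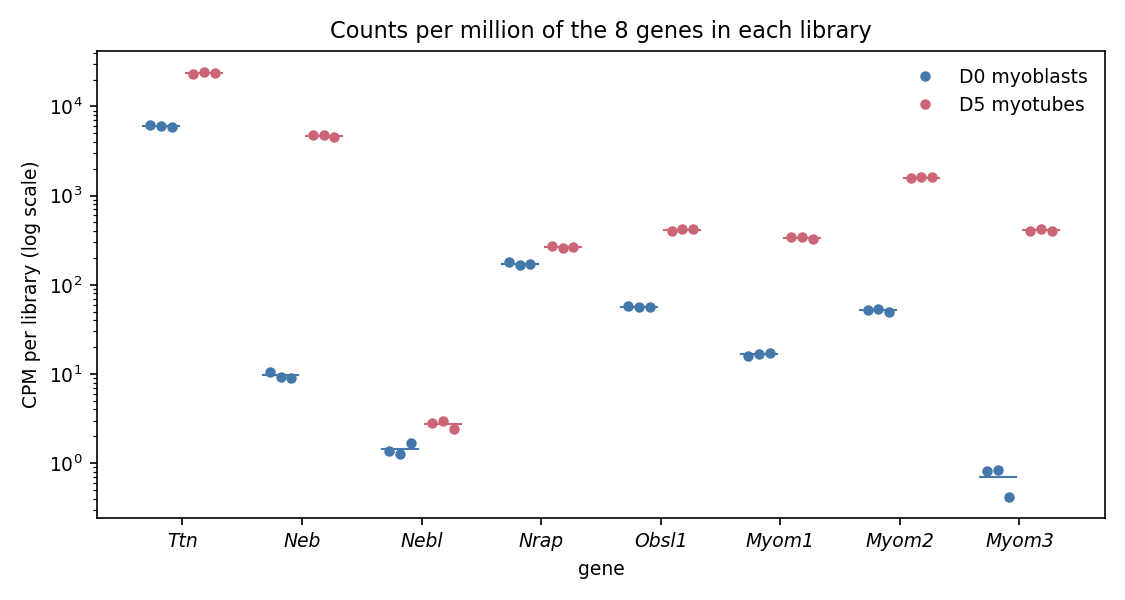
CPM of each gene in each library (y axis, log scale), with D0 myoblasts in blue and D5 myotubes in red, 3 libraries each, and a bar at the group mean. The red points lie above the blue points for all 8 genes, with the smallest gaps for *Nrap* (173 to 265 CPM) and *Nebl* (1.44 to 2.74 CPM) and the widest for *Neb* and *Myom3*.

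Titin was already abundant in myoblasts. *Ttn* stood at 6207, 6053 and 5811 CPM in the D0 libraries and at 23410, 24350 and 23789 CPM in the D5 libraries. The groups were far apart, yet *Ttn* was among the genes with the most counts in both. The log2 fold change was 1.99 ± 0.038 (SE), a 3.96-fold rise, with an edgeR adjusted p of 1.0e-28. It was smaller, 1.49 ± 0.035, with an offset for GC content and length, where the median of all genes tested was -0.19. By counts *Ttn* ranked 6th of all gene rows at D0 and 2nd at D5, a rank that its length favours. Levels per length are given in TPM (transcripts per 1000000, from the exonic length of each gene). Among gene rows with an annotated length, *Ttn* ranked 748th at D0 with 188 ± 3.54 TPM and 151st at D5 with 670 ± 4.94 TPM. Rows without a length, some with high counts, are left out of this ranking. The counts are per gene, so short and long titin isoforms, which differ greatly in length, are not separated, and a level per length depends on the isoform.

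Nebulin showed the other pattern, from a trace to one of the most abundant transcripts. *Neb* stood at 10.6, 9.32 and 9.13 CPM in the D0 libraries and at 4793, 4777 and 4515 CPM in the D5 libraries. The groups lay on different orders of magnitude, with little spread within either. The log2 fold change was 8.92 ± 0.055 (485-fold, edgeR adjusted p = 1.8e-40), and the change exceeded that of 99.3% of all genes tested. Per length, *Neb* went from 1.33 ± 0.0899 to 580 ± 25.9 TPM. Its rank among gene rows with an annotated length went from 13953 to 176.

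The other nebulin family genes described here, *Nrap* and *Nebl*, moved little beside it. *Nrap* stood at 180, 169 and 172 CPM in the D0 libraries and at 272, 258 and 265 CPM in the D5 libraries, with all D5 libraries higher. Its log2 fold change was 0.61 ± 0.034 (95% interval 0.54 to 0.68, edgeR adjusted p = 1.4e-16), the smallest of the 8. *Nebl* was the lowest of the 8 at D5 by counts, with 51, 54 and 68 counts at D0 and 71, 74 and 60 at D5, or 1.36, 1.28 and 1.69 CPM against 2.82, 3.00 and 2.41 CPM. Its raw counts overlapped between the groups and separated only after scaling. The log2 fold change was 0.93 ± 0.169, with a 95% interval from 0.58 to 1.27 (edgeR adjusted p = 1.2e-05) that overlapped that of *Nrap*. With an offset for GC content and length, *Nrap* was at 0.28 ± 0.033 and *Nebl* at 0.80 ± 0.166, with the median of all genes tested at -0.19.

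These 2 small changes depended on how the libraries were scaled. With counts not scaled at all, the median of all genes tested moved from 0.0022 to -0.68 on the log2 scale, *Nrap* was at -0.07 (edgeR adjusted p = 0.331) and *Nebl* at 0.24 (adjusted p = 0.187). With scaling to the ERCC spike-in RNAs that were counted in every library, the median was -0.58, *Nrap* was at 0.04 (adjusted p = 0.958) and *Nebl* at 0.37 (adjusted p = 0.613). The spike-ins took from 0.720 to 2.09% of all counts, both ends of that range at D5, and the standard errors under that scaling were larger for all 8 genes (0.513 for *Nrap*). The other 6 genes were higher under both scalings, *Ttn* at 1.30 and 1.43, *Neb* at 8.24 and 8.37, and *Myom3* at 8.52 and 8.67, in that order. Unscaled values carry the lower depth of the D5 libraries, which lowers every gene. With ERCC scaling the standard errors of *Nrap* (0.513) and *Nebl* (0.537) were too large to tell their TMM values from no change. TMM values are relative to the other genes of the same libraries for all 8 genes. Neither of these fits can decide whether *Nrap* and *Nebl* also rose in amount.

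**Figure D2:**
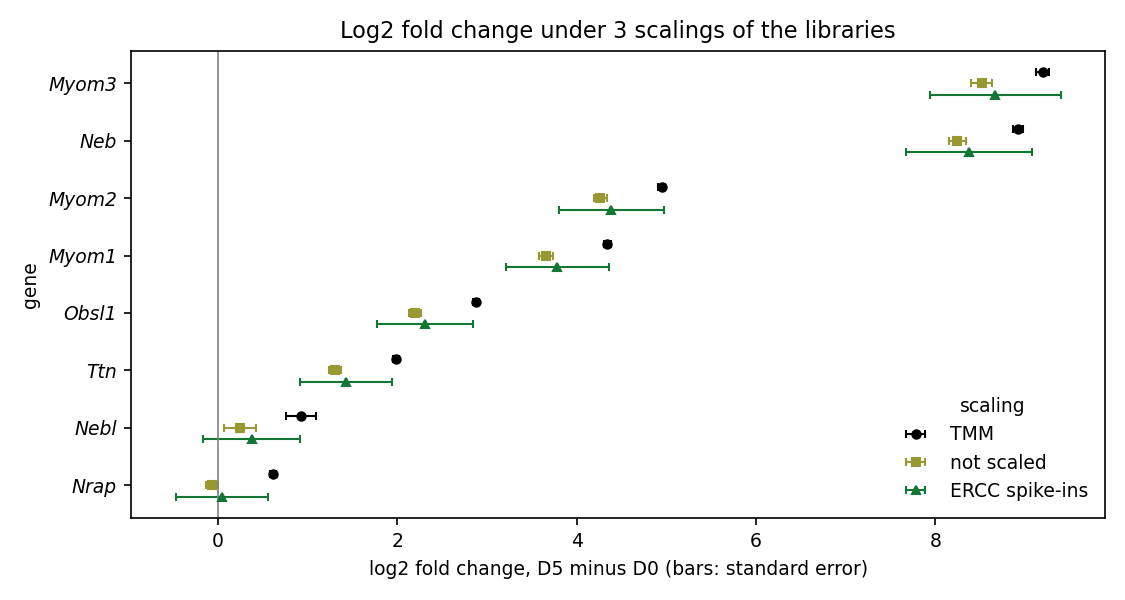
Log2 fold change, D5 minus D0, of each gene (x axis, bars are standard errors, 3 libraries a group) under TMM scaling (black circles), no scaling (olive squares) and scaling to ERCC spike-ins (green triangles). *Nrap* and *Nebl* lie at 0.61 and 0.93 with TMM and closer to 0 with the other scalings, where *Ttn*, the next gene up, is at 1.30 and 1.43.

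*Obsl1*, which links titin to the M-band and works in the 3M complex, stood at 58.0, 55.7 and 56.2 CPM in the D0 libraries and at 402, 420 and 426 CPM in the D5 libraries. The 2 groups were 7.34-fold apart with little spread within either. The log2 fold change was 2.88 ± 0.036 (edgeR adjusted p = 2.6e-33), and per length the level went from 24.4 ± 0.268 to 161 ± 2.49 TPM.

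The 3 myomesins, which tie thick filaments together in the M-band, all rose, each from a different starting level. *Myom1*, the member present in all striated muscle, stood at 15.8, 16.6 and 17.2 CPM in the D0 libraries and at 340, 341 and 326 CPM in the D5 libraries (log2 fold change 4.34 ± 0.042, edgeR adjusted p = 3.1e-36). *Myom2*, encoding M-protein, stood at 51.7, 54.1 and 48.9 CPM at D0 and at 1575, 1599 and 1604 CPM at D5 (log2 fold change 4.95 ± 0.041, edgeR adjusted p = 6.9e-38). Both were detected well above the floor in myoblasts, and the interval of *Myom2* (4.86 to 5.03) lay above that of *Myom1* (4.26 to 4.43).

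*Myom3* was the scarcest of the 3 at D0, with 31, 35 and 17 counts, and had 10140, 10352 and 10038 counts at D5. In CPM it went from 0.827, 0.832 and 0.422 to 403, 420 and 403, so the third D0 library lay well below the other D0 libraries while the D5 libraries were close together. The log2 fold change was 9.20 ± 0.073 (589-fold, edgeR adjusted p = 2.6e-38). Its 95% interval (9.05 to 9.35) lay just above that of *Neb* (8.81 to 9.04), and *Myom3* was above *Neb* in every fit with 1 library left out. The gap was narrowest without the third D0 library, at 8.92 for *Myom3* and 8.87 for *Neb*.

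Ordered by change in the main fit, *Nrap* and *Nebl* had overlapping 95% intervals, and *Ttn*, *Obsl1*, *Myom1*, *Myom2*, *Neb* and *Myom3* followed with separate ones. Without the third D0 library, *Neb* (8.87 ± 0.062) and *Myom3* (8.92 ± 0.075) were no longer separate. Levels of different genes can be compared only per length. In TPM the D0 order was *Ttn* (188), *Nrap* (115), *Obsl1* (24.4), *Myom2* (21.2), *Myom1* (5.77), *Neb* (1.33), *Myom3* (0.418) and *Nebl* (0.346). Of these neighbours only *Myom3* and *Nebl* overlapped in their libraries. At D5 the order was *Ttn* (670), *Myom2* (590), *Neb* (580), *Myom3* (222), *Obsl1* (161), *Nrap* (158), *Myom1* (105) and *Nebl* (0.591). *Myom2* and *Neb* overlapped in their libraries, as did *Obsl1* and *Nrap*. With the length of the longest transcript in place of all exons, *Myom2* came first at D5 with 824 TPM against 586 for *Ttn*. *Myom1* (156) then stood above *Nrap* (127), and *Myom3* and *Obsl1* were both at 192 TPM. At D0 that length put *Myom2* (29.2) above *Obsl1* (28.7) and *Nebl* (0.514) above *Myom3* (0.357), so these places in the order depend on the length used.

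**Figure D3:**
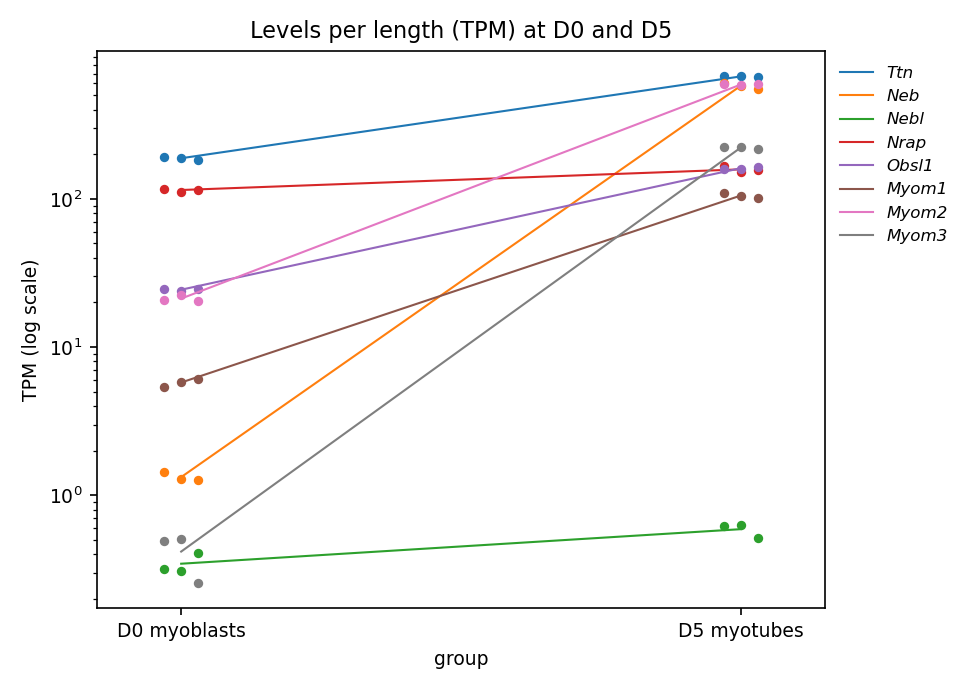
TPM (y axis, log scale) of the 8 genes at D0 and D5, with a point for each of 3 libraries a group and lines joining the group means. The levels spread over a wide range in myoblasts, where *Neb* (1.33 TPM) and *Myom3* (0.418 TPM) are near the bottom, and 7 of the genes lie between 105 and 670 TPM in myotubes, with *Nebl* alone below 1.

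The unequal changes altered the make-up of each family. The nebulin family is taken here as *Neb*, *Nebl* and *Nrap* only. Their relative *Lasp1*, left out of these shares, was at 366 ± 5.73 TPM at D0 and 46.2 ± 1.58 TPM at D5. *Nrap* was at 115 and 158 TPM. Of the summed TPM of *Neb*, *Nebl* and *Nrap*, *Nrap* held 98.5, 98.6 and 98.6% in the D0 libraries and 21.5, 20.7 and 22.0% in the D5 libraries. *Neb* went from 1.14 ± 0.0617% to 78.5 ± 0.678%. *Nebl* held 0.297 ± 0.0457% at D0 and 0.0800 ± 0.00717% at D5. Of the TPM of the myomesin family, *Myom2* held the largest share in both states, 77.4 ± 0.998% at D0 and 64.3 ± 0.530% at D5. The share of *Myom3* went from 1.52 ± 0.480% to 24.2 ± 0.344% and that of *Myom1* from 21.1 ± 1.48% to 11.5 ± 0.277%. The *Ttn* to *Neb* ratio in TPM was 133, 148 and 145 in the D0 libraries and 1.11, 1.16 and 1.20 in the D5 libraries. In each case the groups did not overlap, and the two-sided exact permutation test gave p = 0.1, the smallest that 3 against 3 libraries allow. These shares do not depend on the scaling of libraries, since they are formed within a library. With longest-transcript lengths *Neb* held 81.1% and *Nrap* 18.7% at D5, *Myom2* held 70.3% and *Myom3* 16.4%, and the *Ttn* to *Neb* ratio went from 131 to 1.07.

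**Figure D4:**
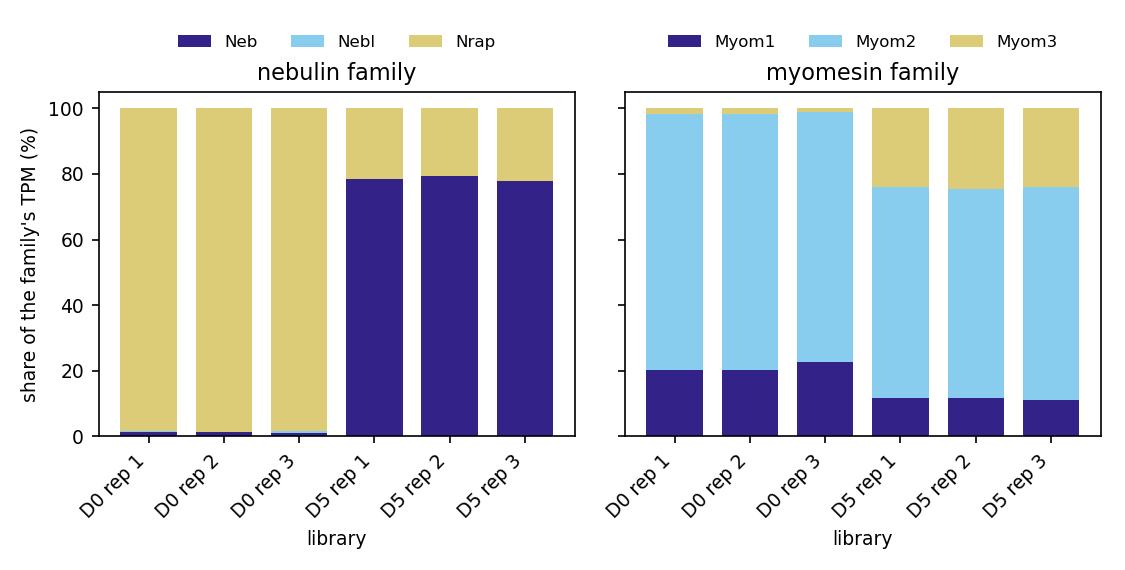
Share of each gene in the summed TPM of its family (y axis, percent), 1 stacked bar for each library, nebulin family on the left and myomesin family on the right. The nebulin bar sums *Neb*, *Nebl* and *Nrap* only and leaves out *Lasp1*. *Nrap* fills nearly the whole nebulin bar at D0 and *Neb* holds 78.5% on average at D5, while *Myom3* grows from 1.52% to 24.2% of the myomesin bar.

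Genes that bind or regulate these proteins were counted from lists, 47 genes in all. At D5, 30 of them were higher and 14 lower, and the median log2 fold change over those tested was 1.12. Of all genes tested, 42.2% were higher and 40.8% lower, the shares to set beside this and each list below. Without scaling, which lowers every value, 6 fitted values changed sign from plus to minus (*Ankrd1*, *Sqstm1*, *Tmod4*, *Xirp1*, *Xirp2* and *Flnc*) and 0 from minus to plus. All of these but *Tmod4* (edgeR adjusted p = 0.704) were then called lower. With ERCC scaling 5 of the 6 changed sign, all but *Tmod4*, without a call (edgeR adjusted p from 0.482 to 0.841). With the GC and length offset 3 changed sign and were called lower (*Sqstm1*, *Xirp1* and *Flnc*). With that offset 4 of the 47 genes lost their test for want of an annotated length, *Ankrd1* among them. With library totals alone 1 changed sign, *Ankrd1*, without a call (edgeR adjusted p = 0.653). Of 18 titin partners, 14 were higher, 2 were lower, 1 was not called and 1 was not tested, with a median of 2.28. In 3 of those higher, *Tcap*, *Actn2* and *Mybpc2*, named after their values were seen, every D0 library had 3 counts or fewer. With 3 counts put in for each D0 library they were 377-fold, 647-fold and 480-fold higher, which leaves the median as it is. *Actn3*, the fast-fibre alpha-actinin of the Z-disc, had the most counts of them at D5 and went from 340 ± 4.49 to 1656 ± 5.72 CPM (2.28 ± 0.033), and the small heat shock protein gene *Cryab* went from 121 ± 3.73 to 369 ± 15.9 CPM (1.60 ± 0.036). *Ankrd1*, which encodes the stretch-responsive ankyrin repeat protein of the I-band, stood at 898 ± 22.9 and 942 ± 24.5 CPM (0.07 ± 0.033, edgeR adjusted p = 0.0539), and the autophagy receptor gene *Sqstm1* at 552 ± 25.8 and 593 ± 13.3 CPM (0.10 ± 0.035, edgeR adjusted p = 0.0068). The genes of the LIM proteins FHL1 and FHL2, which bind the titin spring region, were the ones that fell, *Fhl1* from 952 ± 6.24 to 188 ± 8.03 CPM (-2.34 ± 0.035) and *Fhl2* from 123 ± 3.28 to 40.3 ± 1.03 CPM (-1.61 ± 0.039).

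Of 3 splicing factors known to act on titin pre-mRNA, *Rbm24* rose from 5.73 ± 0.516 to 222 ± 10.5 CPM (5.28 ± 0.054), whereas *Rbm20* fell from 196 ± 2.94 to 110 ± 1.53 CPM (-0.84 ± 0.033) and *Ptbp1* from 294 ± 10.1 to 76.7 ± 1.53 CPM (-1.94 ± 0.036). The gene counts hold no measure of titin splicing itself.

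Of 14 nebulin and thin filament partners, 10 were higher, 3 lower and 1 was not tested, with a median of 0.72. Among all genes tested, 42.2% were higher and 40.8% lower. Without scaling 6 were higher and 5 lower, and with ERCC scaling 5 were higher and 1 lower. *Des*, encoding the desmin intermediate filament, went from 2012 ± 54.4 to 3313 ± 15.5 CPM (0.72 ± 0.033), the muscle cofilin gene *Cfl2* from 262 ± 5.77 to 524 ± 3.93 CPM (1.00 ± 0.032), and *Klhl41*, whose product stabilises nebulin, from 23.5 ± 1.86 to 608 ± 20.1 CPM (4.69 ± 0.045). The genes that fell were *Lasp1*, a small nebulin-repeat protein of the actin cytoskeleton, from 653 ± 1.35 to 91.4 ± 3.99 CPM (-2.84 ± 0.036), the capping protein subunit *Capzb* (-0.52 ± 0.032) and the actin nucleation promoter *Wasl* (-0.36 ± 0.041). *Lasp1* is itself a relative of *Neb*, so within the wider set of nebulin-repeat genes the directions differed.

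Of 5 partners of NRAP at cell and myofibril junctions, 2 were higher and 3 lower. These are too few to set apart from the 42.2% higher and 40.8% lower among all genes tested. Vinculin (*Vcl*) went from 1284 ± 17.1 to 586 ± 8.43 CPM (-1.13 ± 0.032), and the talin genes were lower too, *Tln1* by a log2 fold change of -0.26 ± 0.032 and *Tln2* of -0.70 ± 0.034. *Flnc*, encoding the muscle filamin, was at 0.30 ± 0.033, but at -0.38 without scaling, -0.26 with ERCC scaling and -0.16 with the GC and length offset, and *Csrp3*, encoding the muscle LIM protein, rose from 0.148 ± 0.0575 to 30.4 ± 0.630 CPM (7.62 ± 0.131). Of 4 other genes with products at the M-band or bound there, *Ckm*, the muscle creatine kinase, rose from 2.09 ± 0.507 to 653 ± 22.4 CPM (8.30 ± 0.065), *Ank1* was at 1.74 ± 0.037, *Lrrc39* at 3.39 ± 0.091 and the kinase gene *Speg* at -0.22 ± 0.035. All 3 partners of OBSL1 in the 3M complex were lower, a call that 40.8% of all genes tested shared. *Cul7* was at -0.27 ± 0.034, *Fbxw8* at -0.28 ± 0.034 and *Ccdc8* at -0.83 ± 0.042, while *Obsl1* was at 2.88. With ERCC scaling 1 of the 3 was called lower, with fitted values of -0.84 for *Cul7* and -0.85 for *Fbxw8*.

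**Figure D5:**
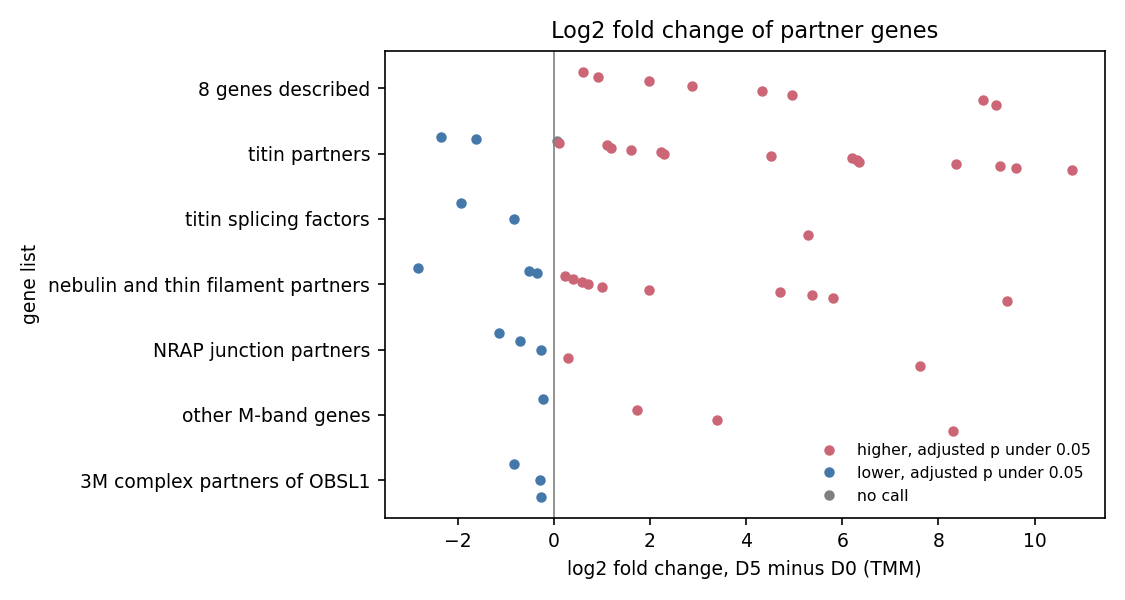
Log2 fold change, D5 minus D0 (x axis), of the 8 genes and of the tested genes of each partner list (rows), 1 point a gene, coloured by the edgeR call at an adjusted p under 0.05. For 3 titin partners with 3 counts or fewer in every D0 library, the point is a fitted value that depends on the prior count. The 8 genes all lie to the right of 0, titin partners lie mostly to the right with *Fhl1* (-2.34) and *Fhl2* (-1.61) on the left, and the 3M complex partners all lie on the left.

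For each gene, the gene outside the 8 with the most similar profile was sought among the 10502 called genes that averaged 100 counts or more at D0 or at D5, by the Euclidean distance of log2 CPM (prior count 2) over the 6 libraries, each gene centred on its mean. *Ttn* was nearest to *Bhlhe40*, a basic helix-loop-helix repressor (distance 0.0547, log2 fold change 1.98), *Nrap* to the homeobox gene *Hoxa10* (0.0292, 0.63), *Obsl1* to *Plekhg5* (0.0733, 2.87) and *Nebl* to *Jmjd8* (0.211, 0.92). *Myom1* was nearest to *Myo18b*, an unconventional myosin of the sarcomere (0.137, 4.45), *Myom2* to the retinoic acid binding protein gene *Crabp2* (0.145, 4.90) and *Myom3* to the fusogen *Mymk* (0.312, 9.02). *Neb* was nearest to the glutamate transporter gene *Slc1a3* (0.237), which had no count at D0 and 31.9 ± 1.80 CPM at D5, so that this likeness depends on the prior count. With 2 groups, such a profile holds little beyond the size of the change.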

How the data were processed

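RNA-seq of C2C12 cells was analysed in 6 libraries, 3 of myoblasts (D0) and 3 of myotubes (D5), grouped by sample title. The authors deposited raw counts per gene from featureCounts on GRCm38 (mm10), without normalization. Labels and paper name different aligners, and the annotation, the strand setting and the handling of multimapped reads are not given in the sources used here. The 92 ERCC rows and 1 unnamed row equal to the column total were left out. From these counts, edgeR 4.0.16 (R 4.3.3) gave TMM-scaled CPM and, after filterByExpr, quasi-likelihood tests, with Benjamini-Hochberg adjustment over 16290 genes. Standard errors are the log2 fold change over the square root of F. TPM used GENCODE M21 exonic lengths, found for 97.8% of gene rows. The 3-count floor is a set value, and folds taken from it are not limits on counting error or on other spread. The code was tested on simulated data. The genes and lists were chosen with earlier results of these data known. Named beyond the 8 genes are at most 5 genes a list by mean CPM, those going against their list, and the nearest profile of each gene. Of the lists drawn up, 1 gene is not reported here. Alternatives were DESeq2 1.42.0, other scalings and filters, leaving out libraries, a replicate block, a GC and length offset, and longest-transcript length.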

Additional observations from a re-analysis of the deposited data

How the results depend on the processing

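The 8 genes were higher at D5 under each of the alternatives except no scaling and ERCC scaling, where 6 were higher and 6 did not overlap between groups. Without scaling, *Nrap* was at -0.067 and *Nebl* at 0.24. With ERCC scaling, 5560 genes passed the threshold against 13510, *Nrap* was at 0.04 and *Nebl* at 0.37. The share of calls that were higher was 50.8% with TMM, 23.4% without scaling, 32.6% with ERCC scaling and 41.4% with the GC and length offset, whose median over all genes was -0.19. Leaving out 1 library at a time gave 13236 to 13599 genes, 8 of the 8 genes higher in each case, 13 to 15 titin partners higher (15 without the third D5 library, where *Ankrd1* was called, and 13 without the third D0 library, where *Sqstm1* was not) and 9 to 10 nebulin partners higher (9 without the second D5 library, where *Tmod4* was not called). *Ttn* then ran from 1.95 to 2.00, *Nebl* from 0.83 to 1.04 and *Nrap* from 0.58 to 0.64. Among the partner lists, no scaling gave 4 titin partners lower, 6 nebulin partners higher and 5 lower, and 1 NRAP partner higher. ERCC scaling gave 5 nebulin partners higher and 1 lower, 1 NRAP partner higher, 0 M-band genes lower and 1 of the 3M partners lower. A minimum of 10 counts in every library, which tests fewer genes, left 9 titin partners and 1 NRAP partner higher. The GC and length offset, with and without the replicate block, tested 15532 genes, those with a length, and gave 1 splicing factor lower (*Rbm20* was not tested) and 1 NRAP partner higher. *Nrap* was then at 0.28 and *Ttn* at 1.49. Other causes were not tested. With longest-transcript lengths the family shares changed by 79.8 percentage points for *Neb*, -79.4 for *Nrap*, -0.42 for *Nebl*, -6.60 for *Myom2* and 15.5 for *Myom3*, and the *Ttn* to *Neb* ratio by -130. Same-numbered libraries deviated together with r of 0.033, 0.064 and 0.028 across genes, too weakly to pair them, although each correlated best with its own number. With a replicate block 13558 genes were called and all 8 genes were higher. Depth limits chiefly *Nebl* and the D0 level of *Myom3*.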
